A study of Mus musculus with 10 samples.

Results

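Rspo3 and 9 further genes that amplify or restrain Wnt signalling were followed by RNA sequencing in mouse MLL-AF9 leukemia cells in which the microRNA miR-139 can be switched on. The 10 genes, Rspo3, Lgr4, Lrp6, Rnf43, Znrf3, Frat1, Frat2, Axin1, Axin2 and Ctnnb1, were taken by symbol from the 52550 genes of the count table. Rspo3 was chosen by its measured fall with miR-139 in these same libraries, so its change there is described without a test. The other genes were added for their function in the pathway, but with earlier results of these data known. Of the 10 genes, 9 had at least 10 counts over the 10 libraries and counted as measured, as did 20269 genes in the whole table. Axin2 had 0 counts in all 10 libraries and is reported as not measured.

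The cells were hematopoietic stem and progenitor cells (HSPCs) from bone marrow of C57BL/6 mice aged 8 to 20 weeks. All of them carried a retroviral MLL-AF9 fusion and a lentiviral insert that doxycycline (DOX) turns on, either miR-139 (MLL-AF9-i139) or eGFP (MLL-AF9-ieGFP). The authors' methods describe the repressor tetR-KRAB for MLL-AF9-i139 and do not state it for MLL-AF9-ieGFP. For MLL-AF9-i139, 3 clones were sequenced without DOX and with 5 µg/mL DOX, which lasted 48 h in clones 1 and 2 and 72 h in clone 3; the labels give no culture time for their untreated libraries. MLL-AF9-ieGFP was 1 clone, from which a treated and an untreated library were made after 48 h and again after 72 h, so its libraries differ by culture time and not by clone. Each clone came from a single colony with its own insertions, and the number of donor mice was not given in the sources used here.

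Total counts ranged from 35133308 to 47089725 per library. At this depth 3 counts, taken as the limit that a count of 0 allows, equal 0.0637 to 0.0854 CPM (counts scaled to a common library size), and this limit and the intervals below cover counting error only. Of 8 myeloid progenitor markers, 7 had at least 10 counts, whereas Itgam, which encodes CD11b, had 6 counts in all and 99.9% of its gene body lies inside other genes. Among protein-coding genes that lie inside another gene without sharing an exon base, 664 of 677 had 0 counts (98.1%), compared with 24.9% of those lying outside all other genes. Mir139, which lies inside Pde2a, had 0 counts in all 10 libraries, so the table cannot check the induction of miR-139. Pde2a itself had 1 count over the 10 libraries, and the reason for these low counts was not tested. The authors report Pde2a expression in MLL-AF9 cells from RNA sequencing of other libraries, unchanged relative to wild-type HSPCs. Lists for other cell types were summed in each library. The T cell list had 0.0580 to 0.230 CPM and the erythroid list at most 0.0418 CPM, with Hbb-bt at 0 counts. The B cell list had 0.570 to 1.39 CPM, nearly all Cd79a with Ms4a1 at 0 counts, and the stromal list 0.0509 to 0.533 CPM, nearly all Pdgfrb with Col3a1 at 0 counts. Higher sums came from the endothelial list (18.1 to 38.9 CPM), nearly all Pecam1, which leukocytes also express, with Cdh5 at 6 counts and Kdr at 3 counts. The mature neutrophil list had 10.2 to 17.8 CPM, mostly Camp and Ltf.

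R-spondins are secreted proteins that raise the response of a cell to Wnt ligands. They bind LGR receptors and the ligases RNF43 and ZNRF3, which otherwise remove Frizzled and LRP receptors from the surface, so that more receptors stay available. Inside the cell AXIN proteins form the scaffold of the complex that marks β-catenin for destruction, and FRAT proteins bind and restrain GSK3, a kinase of that complex. β-catenin has been studied as a factor in the self-renewal of MLL-rearranged leukemia stem cells.

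The sequences through which miR-139 could pair with these transcripts are shown because the libraries compare cells with and without its induction. Both mature arms, which the RefSeq table places on chromosome 7 of GRCm38.p6 at chr7:101475382-101475403 and chr7:101475418-101475439, plus strand, are printed with the seed, bases 2 to 8, in capitals.
mmu-miR-139-5p: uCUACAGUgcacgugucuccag
mmu-miR-139-3p: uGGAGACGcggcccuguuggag

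The longest annotated 3′ UTR of each of the 10 genes was searched on the transcript strand for ACTGTAG (miR-139-5p) and CGTCTCC (miR-139-3p), the complements of the seeds, and for the shorter CTGTAGA and GTCTCCA, in which an A lies opposite base 1. An 8mer holds both forms and was counted once. The 3 genes with a match were Rspo3 and Ctnnb1 for the 5p arm and Axin2 for the 3p arm, and the matched bases are in capitals, in GENCODE transcript sequence on GRCm38.
Rspo3, 8mer, chr10:29454103-29454127, minus strand: ggtcctgcgaggttACTGTAGActc
Ctnnb1, 7mer-A1, chr9:120959801-120959825, plus strand: tgcattgtgattggcCTGTAGAgtt
Axin2, 7mer-A1, chr11:108949575-108949599, plus strand: ggtagttgatcttcaGTCTCCAgga

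The Rspo3 match began at base 17 of a 3′ UTR of 1712 bases, close to the stop codon, and this UTR belongs to 1 of 2 protein-coding transcripts. The Ctnnb1 match began at base 299 of 990 and lies in 1 of 6 protein-coding transcripts, and the Axin2 match began at base 195 of 1388 and lies in 1 of 5. The UTRs of the remaining 7 genes held neither form for either arm. Of 13989 protein-coding genes tested in these libraries that have an annotated 3′ UTR, 21.7% held a match for miR-139-5p and 15.9% one for miR-139-3p, and 4.29% held an 8mer for miR-139-5p as Rspo3 does. A match is a description of letters and not a measured binding site.

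Rspo3, which encodes R-spondin 3 (ENSMUSG00000019880, chr10:29452416-29535867, minus strand, GRCm38), was present at a low level in every untreated library and was nearly lost in the DOX-treated MLL-AF9-i139 libraries. Without DOX, clones 1, 2 and 3 had 74, 64 and 54 counts, or 1.52, 1.46 and 1.37 CPM. With DOX they had 6, 1 and 4 counts, or 0.125, 0.0254 and 0.102 CPM. All 3 treated libraries therefore lay far below all 3 untreated ones, and the count of 1 in clone 2 lies under the limit of 3 counts. The mean went from 1.45 ± 0.0745 CPM (SD, n = 3) to 0.0841 ± 0.0522 CPM (SD, n = 3), a fitted log2 fold change of -4.02 with an SE of 0.42.

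Read within clones, the treated level was 0.0826 of the untreated level in clone 1 (exact 95% interval from counting error, 0.0294 to 0.189). The ratio was 0.0174 in clone 2 (0.000435 to 0.101) and 0.0742 in clone 3 (0.0195 to 0.201). The 3 intervals overlap, which is no test of a difference between clones, and none was run. The ratio of clone 3, which was treated for longer, was close to that of clone 1.

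In MLL-AF9-ieGFP, Rspo3 stayed detectable with DOX. The untreated libraries had 57 counts at 48 h and 31 at 72 h, or 1.25 and 0.899 CPM, and the treated ones had 34 and 23 counts, or 0.867 and 0.626 CPM. Both treated libraries lay below the untreated library of the same time, and both below the lowest untreated level, but the log2 fold change of -0.53 (SE 0.38) did not pass (edgeR quasi-likelihood test, adjusted p = 1.00). The ratios were 0.694 (0.44 to 1.08) at 48 h and 0.696 (0.387 to 1.23) at 72 h, with intervals from counting error only. Both ratios come from 1 clone. Ordered by mean level, untreated MLL-AF9-i139 stood first, then untreated MLL-AF9-ieGFP at 1.07 ± 0.248 CPM, treated MLL-AF9-ieGFP at 0.746 ± 0.171 CPM (both SD, n = 2) and treated MLL-AF9-i139. The treated and untreated MLL-AF9-ieGFP groups did not differ by the test above. The libraries of the 4 groups do not overlap, with the last group far below the others. This order is a description only, since Rspo3 was chosen by its fall in MLL-AF9-i139 and each MLL-AF9-ieGFP group is 2 libraries of 1 clone. Treated and untreated MLL-AF9-i139 libraries did not overlap for 24.9% of all genes tested. Bulk RNA cannot tell fewer Rspo3-expressing cells from less Rspo3 RNA per cell.

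**Figure D1:**
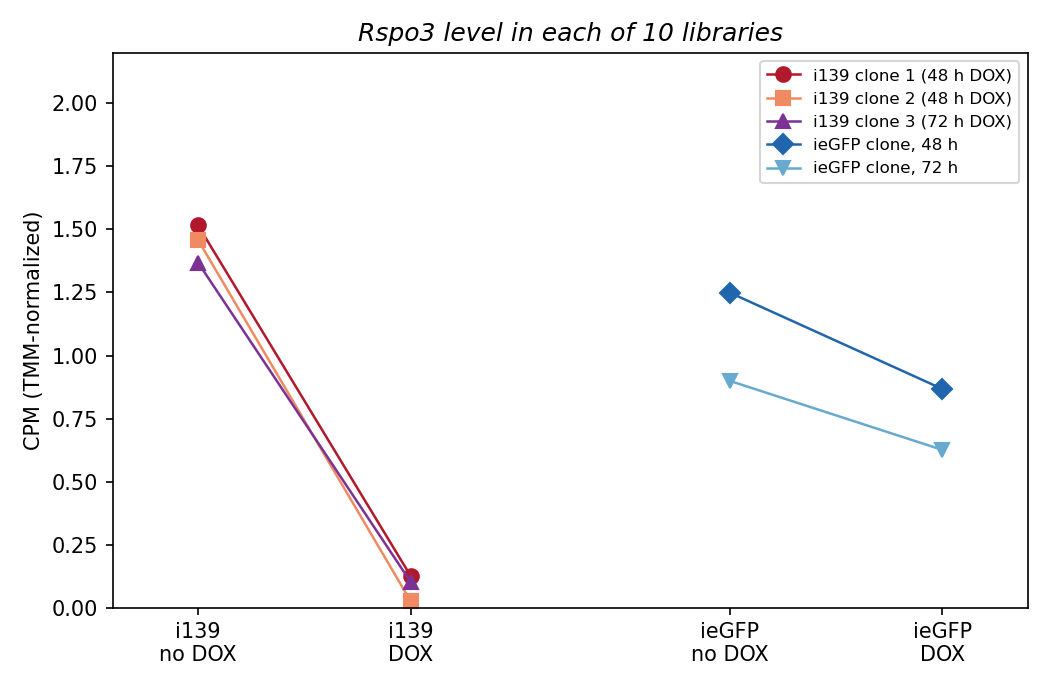
Rspo3 level in TMM-normalized CPM (vertical axis) in the 10 libraries, with a line joining the untreated and DOX-treated library of each MLL-AF9-i139 clone and of each MLL-AF9-ieGFP culture time. The 3 treated MLL-AF9-i139 libraries lie between 0.0254 and 0.125 CPM and the treated MLL-AF9-ieGFP libraries at 0.626 and 0.867 CPM.

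At its highest, Rspo3 remained a rare transcript. Compared per length in untreated MLL-AF9-i139, it had 0.469 CPM per kb of exon, below Rnf43 at 5.05, Lgr4 at 7.52, Frat1 at 7.84, Lrp6 at 12.7, Znrf3 at 16.8, Axin1 at 23.6, Frat2 at 29.3 and Ctnnb1 at 32.7 CPM per kb. Lgr4 and Frat1 are neighbours in this order whose ranges overlap, as are Frat2 and Ctnnb1. Since nested genes were nearly all at 0 and the treatment of intron reads is not stated, the order was also taken per kb of gene body. There Rspo3 was again lowest at 0.0174 CPM per kb, Rnf43 (0.455) and Lgr4 (0.458) were level, and the small genes Frat1 (7.84) and Frat2 (29.3) stood highest.

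**Figure D2:**
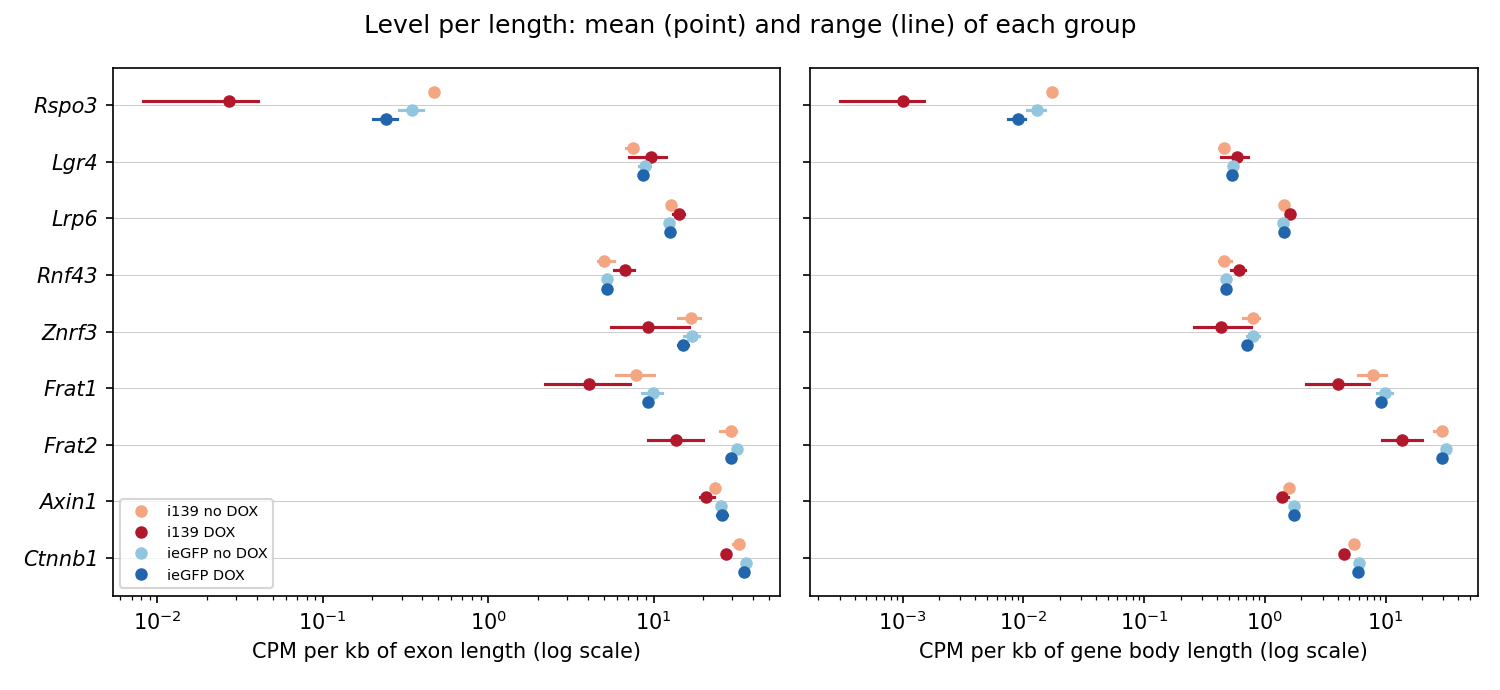
Level of the 9 measured genes in CPM per kb of exon (left) and of gene body (right), on log axes, with the mean of each group as a point and the range of its libraries as a line. Rspo3 is lowest by either length, and its treated MLL-AF9-i139 group lies to the left of the others.

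The comparison of DOX-treated with untreated MLL-AF9-i139 asks how the rest of this module moved when miR-139 was induced. Frat1, Frat2 and Znrf3 were lower by more than 1 on the log2 scale in clones 1 and 2 but changed less in clone 3, Rnf43 was higher in every clone, and Lgr4, Lrp6, Axin1 and Ctnnb1 differed by less than 0.60 on the log2 scale in each clone. In the fit without a block, 0 of these 8 genes passed an adjusted p of 0.05 (edgeR quasi-likelihood test), compared with 12 of 19223 genes tested (0.0624%), while 3 of the 8 had an unadjusted p under 0.05 against 20.6% of all genes. With the clone as a block, which uses that both libraries of a pair come from the same clone, 4 of 8 passed: Frat1, Frat2 and Znrf3 fell and Rnf43 rose. The block fit called 2381 of all genes (12.4%), 7.05% higher and 5.33% lower. DESeq2 without a block called 1 of the 8, Frat2, against 8.09% of all genes.

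**Figure D3:**
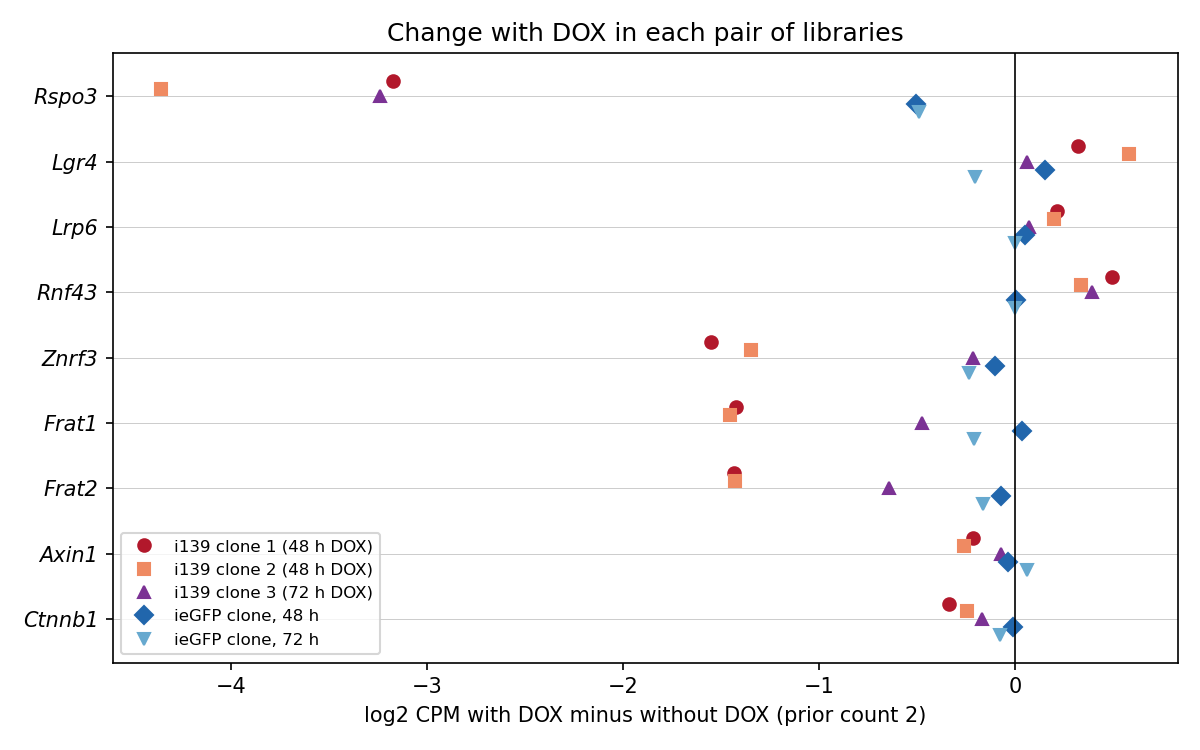
Difference in log2 CPM between the DOX-treated and the untreated library (horizontal axis) for the 9 measured genes, with 1 point for each MLL-AF9-i139 clone and each MLL-AF9-ieGFP culture time. Rspo3 lies below -3 in all 3 clones, and Znrf3, Frat1 and Frat2 lie below -1 in clones 1 and 2 and nearer to 0 in clone 3.

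Among the receptors, Lgr4 (ENSMUSG00000050199, chr2:109917647-110014257), which binds R-spondins, had 45.8, 46.7 and 40.3 CPM in untreated clones 1, 2 and 3 and 57.3, 69.9 and 42.0 CPM with DOX. The groups overlap, since treated clone 3 lay within the untreated range, and the log2 fold change of 0.36 (SE 0.18) did not pass without the block (adjusted p = 0.296) or with it (adjusted p = 0.0980). Lrp6 (ENSMUSG00000030201, chr6:134446476-134566965), a co-receptor of Wnt ligands, had 179, 172 and 170.0 CPM untreated and 208, 197 and 179 CPM with DOX. Its groups overlapped narrowly near 179 CPM, and its log2 fold change of 0.18 (SE 0.09) had an adjusted p of 0.325, or 0.179 with the block. The other LGR receptors were hardly present, with 27 counts over the 10 libraries for Lgr5 and 318 counts for Lgr6.

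The ligases that R-spondin 3 holds back differed in direction. Rnf43 (ENSMUSG00000034177, chr11:87662722-87735539) had 31.2, 30.2 and 38.0 CPM in untreated clones 1, 2 and 3 and 44.0, 38.1 and 49.9 CPM with DOX. Each treated library lay above every untreated one, though clone 2 did so by little, and the rise within clones was 0.50, 0.33 and 0.39 on the log2 scale. The log2 fold change was 0.42 (SE 0.14) with an adjusted p of 0.165 without the block and 0.0303 with it.

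Znrf3 (ENSMUSG00000041961, chr11:5276324-5444847) had 137, 111 and 150.5 CPM untreated and 46.7, 43.8 and 129 CPM with DOX. Clones 1 and 2 went far below the untreated range, whereas treated clone 3 lay inside it, and the differences within clones were -1.55, -1.35 and -0.22 on the log2 scale. The fit without the block gave -0.85 (SE 0.39, adjusted p = 0.261) and the fit with it -1.03 (SE 0.24, adjusted p = 0.0391).

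Frat1 (ENSMUSG00000067199, chr19:41829970-41832583) and Frat2 (ENSMUSG00000047604, chr19:41845972-41848132), neighbouring genes whose proteins bind GSK3, followed the same course. Frat1 had 15.5, 19.8 and 26.2 CPM untreated and 5.74, 7.20 and 18.8 CPM with DOX, a change of -1.42, -1.45 and -0.48 on the log2 scale in clones 1, 2 and 3. Frat2 had 54.2, 68.4 and 67.5 CPM untreated and 20.1, 25.4 and 43.3 CPM with DOX, a change of -1.43, -1.43 and -0.64. Every treated Frat2 library lay below every untreated one, while treated clone 3 of Frat1 lay above untreated clone 1. The log2 fold change of Frat2 was -1.09 (SE 0.26, adjusted p = 0.110) without the block and -1.15 (SE 0.16, adjusted p = 0.0202) with it, and that of Frat1 was -0.95 (SE 0.43, adjusted p = 0.256) and -1.10 (SE 0.20, adjusted p = 0.0274). Their exons share 71 stretches of 50 bases, 2.77% of those in Frat1 and 3.36% of those in Frat2, so a small share of reads could be assigned to either or discarded.

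**Figure D4:**
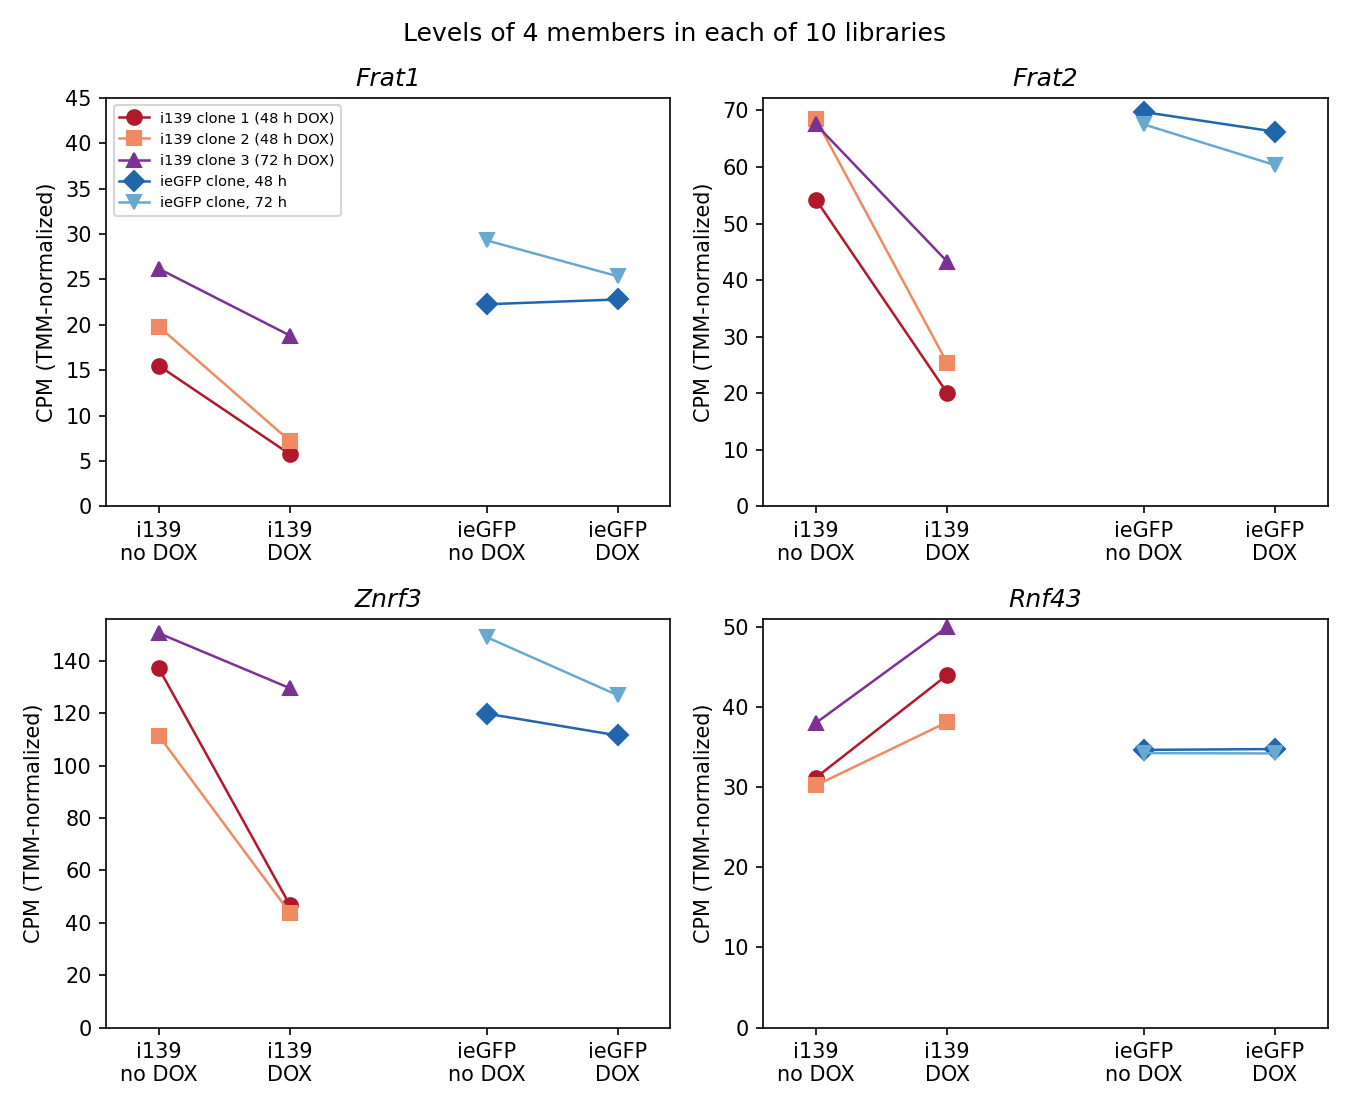
TMM-normalized CPM of Frat1, Frat2, Znrf3 and Rnf43 in the 10 libraries, each axis starting at 0, with lines joining the untreated and DOX-treated library of a clone or culture time. Treated clones 1 and 2 lie lowest for Frat1, Frat2 and Znrf3, treated clone 3 lies above them, and MLL-AF9-ieGFP shows nearly level lines for Rnf43.

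Clone 3 differed from clones 1 and 2 also in its length of treatment, so clone and time cannot be told apart. Without clone 3, Frat1 (-1.43), Frat2 (-1.42), Znrf3 (-1.44), Rnf43 (0.44) and Lgr4 (0.48) passed in the fit without a block, 5 of 8 against 21.7% of all genes, and with the block all 8 passed against 43.4%. Without clone 1 the block fit called Frat2 alone among the 8 (1.8% of all genes), and without clone 2 it called Frat1, Frat2 and Znrf3 (3.17%). The block fits that leave out a clone were added after seeing the data, and each rests on 2 pairs of libraries. The myeloid markers Fcgr3 and Spi1 also differed between clones: Fcgr3 had 79.0 to 96.9 CPM in the untreated libraries, 312 and 269 CPM in treated clones 1 and 2, and 99.2 CPM in treated clone 3. Spi1 had 82.3 to 92.8 CPM untreated, 146 and 169.9 CPM in treated clones 1 and 2, and 89.5 CPM in treated clone 3. Pecam1 had 38.2 and 32.6 CPM in treated clones 1 and 2 and 21.2 CPM in treated clone 3, against 22.1 to 29.6 CPM untreated. The progenitor markers did not move one way. Mpo was higher in all 3 treated clones, at 1244 to 1669 CPM against 414 to 615 CPM untreated, whereas Hoxa9 was lower in each clone, at 84.9, 89.8 and 109.7 CPM against 119, 106 and 141 CPM, and so was Meis1, at 81.3, 92.6 and 97.2 CPM against 101, 93.6 and 112 CPM. Kit and Cebpa were higher in some clones and lower in others. In MLL-AF9-ieGFP, Mpo was also higher with DOX, at 705 against 524 CPM at 48 h and 927 against 642 CPM at 72 h. Hoxa9 and Meis1 were there higher with DOX at 48 h and lower at 72 h. The summed level of the 8 progenitor markers, largely Mpo, was 998 to 1216 CPM in untreated and 2063 to 2316 CPM in treated MLL-AF9-i139 libraries, and 1105 to 1250 and 1305 to 1539 CPM in MLL-AF9-ieGFP. The part of such a shift in the values of the Wnt genes was not tested.

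Among the components around β-catenin, Axin1 (ENSMUSG00000024182, chr17:26138688-26195811), the scaffold of the destruction complex, had 85.1, 92.8 and 93.3 CPM untreated and 73.2, 77.4 and 88.6 CPM with DOX. Treated clone 3 lay within the untreated range, and the log2 fold change of -0.17 (SE 0.10) had an adjusted p of 0.397, or 0.200 with the block. Ctnnb1 (ENSMUSG00000006932, chr9:120929216-120960507), which encodes β-catenin, had 179, 172 and 158 CPM untreated and 142, 145 and 140.3 CPM with DOX. All treated libraries lay below all untreated ones, but the log2 fold change was only -0.24 (SE 0.09), with an adjusted p of 0.188, or 0.0842 with the block. Its exons share 14.6% of their bases with Ulk4 on the opposite strand, which had 5770 counts, and whether the counting used strand is not given in the sources used here. The exons of Rspo3 share 13.1% of their bases with the antisense gene Gm48159, which had 41 counts over the 10 libraries.

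Leaving out Rspo3, 3 of 8 genes had treated and untreated MLL-AF9-i139 libraries that did not overlap (37.5%), Rnf43 higher and Frat2 and Ctnnb1 lower, against 24.9% of all genes tested. Axin2, a common transcriptional readout of Wnt signalling (ENSMUSG00000000142, chr11:108920349-108950783), could not serve as one here. Only 8.89% of its gene body lies inside other genes, and its antisense neighbour Gm11670 also had 0 counts.

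The MLL-AF9-ieGFP clone shows what changed with DOX in this 1 clone, which carries the eGFP insert and not that of miR-139. In it, 0 of the 9 measured genes passed, with or without the culture time as a block, as did 0 of 20269 genes tested without it (0.0%); 259 of these genes (1.28%) had an unadjusted p under 0.05 and DESeq2 called 1. Leaving out Rspo3, 0 of the 8 genes had an unadjusted p under 0.05. Frat2 had 69.7 and 67.5 CPM untreated at 48 h and 72 h and 66.2 and 60.3 CPM treated, and Frat1 had 22.3 and 29.3 CPM untreated and 22.8 and 25.4 CPM treated. Znrf3 had 119.8 and 149 CPM untreated and 111 and 127 CPM treated. At 72 h the change in log2 CPM was -0.23 for Znrf3, -0.21 for Frat1 and -0.16 for Frat2. Clone 3 of MLL-AF9-i139, also treated for 72 h, had -0.22, -0.48 and -0.64 for these genes. Rnf43 stayed between 34.2 and 34.7 CPM in all 4 libraries.

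The difference between the DOX effects of MLL-AF9-i139 and MLL-AF9-ieGFP was tested directly for the 8 genes other than Rspo3. None of the 8 passed (adjusted p between 0.527 and 0.741), with 1 at an unadjusted p under 0.05 (9.17% of all genes), when 1 of 20269 genes passed (0.00493%). With the block the lowest value was that of Frat2, a difference of -1.05 (SE 0.22, adjusted p = 0.0851), and 0.187% of all genes passed. Without clone 3, Frat1 (difference -1.32, adjusted p = 0.00825), Frat2 (-1.29, adjusted p = 0.00194) and Znrf3 (-1.25, adjusted p = 0.00209) passed in the fit without a block, against 10.2% of all genes. This difference thus passed for these 3 genes with clones 1 and 2 alone and for none of the 8 with clone 3 included. The MLL-AF9-ieGFP side of each fit is culture times of 1 clone, so construct and clone cannot be told apart. For Rspo3 the corresponding difference of -3.50 (SE 0.56) is given as a description.

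A wider list of 97 Wnt pathway genes, sorted by role, places these values beside the rest of the pathway. Of them 68 had at least 10 counts over the 10 libraries and 65 entered the test in MLL-AF9-i139. Without the block 0 passed, with 11 at an unadjusted p under 0.05 (16.9%, against 20.6% of all genes) and 2 called by DESeq2, Csnk1e and Kremen1 (3.08%, against 8.09%). With the block 7 passed (10.8%), 4 higher and 3 lower, near the 12.4% of all genes. The median log2 fold change of the list was 0.10, compared with 0.01 over all genes tested, and 7 of its genes were higher and 5 lower without overlap between groups (18.5%, against 24.9% of all genes). In MLL-AF9-ieGFP none of the 68 passed with either fit, and 0 had an unadjusted p under 0.05 without the block.

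By role, genes of 2 roles being counted in both, 0 of 10 ligands and 0 of 2 secretion factors passed with the block, as did 1 of 11 receptors, 2 of 5 secreted or surface inhibitors, 1 of 21 cytoplasmic components, 2 of 13 nuclear factors and 2 of 7 target genes. Over all genes tested 12.4% passed with the block, and each role holds only 2 to 21 genes. Among ligands, the other R-spondins were scarce, with 84 counts over the 10 libraries for Rspo1, 82 for Rspo4 and 10 for Rspo2, against 348 counts for Rspo3, none of them scaled to gene length. Wnt4, a Wnt ligand, had a log2 fold change of 0.81 (SE 0.25, adjusted p = 0.142, or 0.0586 with the block). The receptor Ryk, a tyrosine kinase-like Wnt receptor, fell with the block from 32, 6 and 16 counts in clones 1, 2 and 3 to 4, 1 and 4 counts. Its log2 fold change was -2.45 (SE 0.70, adjusted p = 0.128, or 0.0281 with the block), and its untreated level differed widely between clones. The receptor Fzd5 had a log2 fold change of -0.58 (SE 0.29), which did not pass (adjusted p = 0.298, or 0.0934 with the block).

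Both inhibitors that passed with the block were higher. Sfrp5, a secreted protein that binds Wnt ligands, went from 9, 6 and 8 counts to 26, 21 and 18 counts, a log2 fold change of 1.55 (SE 0.33, adjusted p = 0.0978, or 0.0364 with the block). Kremen1, a receptor for Dickkopf proteins, went from 16.6 ± 0.479 CPM to 23.5 ± 2.91 CPM (SD, n = 3), a log2 fold change of 0.52 (SE 0.13, adjusted p = 0.118, or 0.0325 with the block). Treated and untreated libraries of both genes did not overlap, as was the case for 24.9% of all genes tested. Csnk1e, a casein kinase that acts on Dishevelled, went from 13.2 ± 0.848 to 23.8 ± 6.79 CPM (SD, n = 3; log2 fold change 0.87, SE 0.22, adjusted p = 0.114, or 0.0396 with the block).

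In the nucleus, Lef1, a transcription factor that partners β-catenin and is itself a Wnt target, fell with the block. It had 36, 38 and 30 counts in untreated clones 1, 2 and 3 and 5, 12 and 16 counts with DOX (log2 fold change -1.54, SE 0.44, adjusted p = 0.128, or 0.0422 with the block). Its groups did not overlap, as was the case for 24.9% of all genes tested. Jup, which encodes the β-catenin relative plakoglobin, was higher in each clone with the block, but its untreated level ranged from 5.65 to 17.5 CPM and its fold change of 0.82 (SE 0.56) had an adjusted p of 0.440 without the block and 0.0297 with it. Tcf7l2, another partner of β-catenin, had a log2 fold change of -0.98 with an SE of 1.16 (adjusted p = 0.674, or 0.346 with the block). Among target genes, Myc had 316, 365 and 364 CPM untreated and 215, 228 and 317 CPM with DOX, so that treated clone 3 again lay nearest to its untreated level (log2 fold change -0.45, SE 0.15, adjusted p = 0.169, or 0.0359 with the block).

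**Figure D5:**
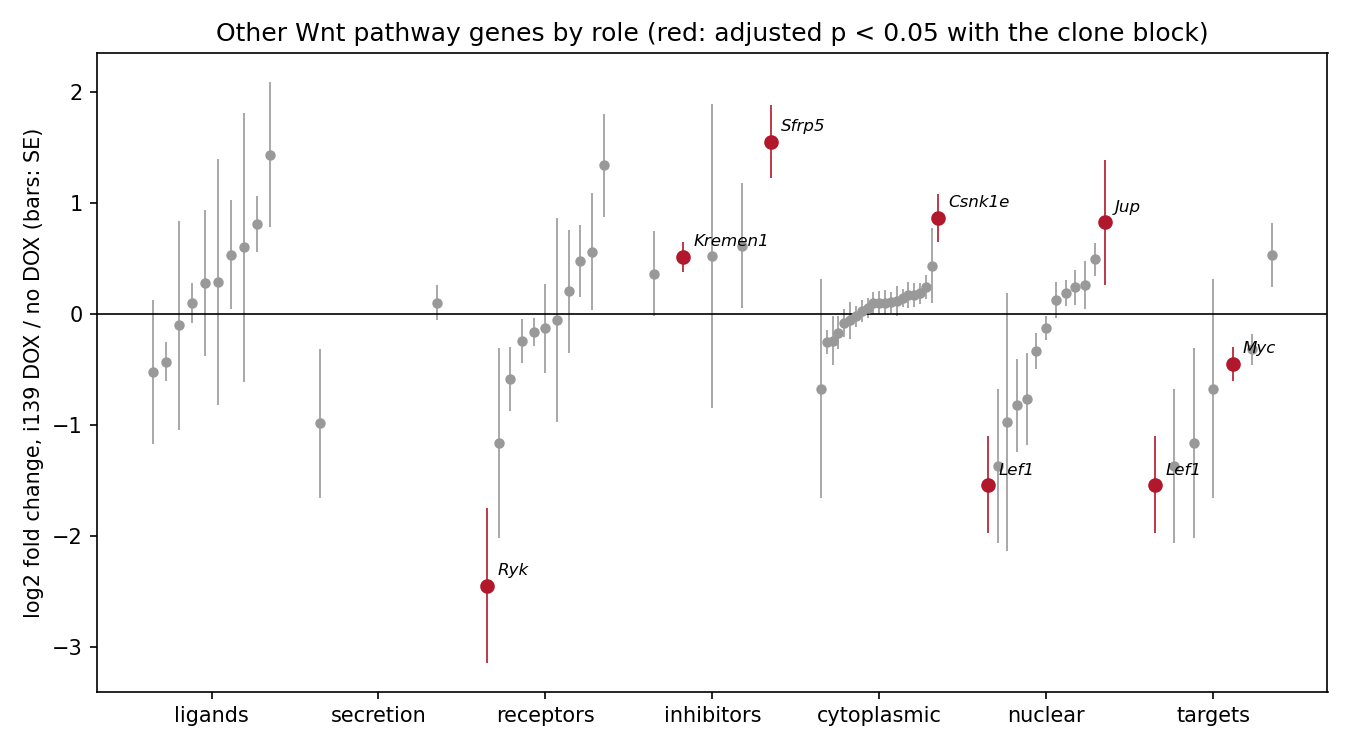
Log2 fold change of DOX-treated over untreated MLL-AF9-i139 (vertical axis, bars show the SE) for the 65 tested genes of the wider Wnt list, by role, from the fit without a block. The 7 genes that passed with the clone as a block are in red and named, and Lef1 appears under both of its roles.

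Over the 10 libraries, the genes whose log2 CPM followed that of Rspo3 most closely, among 11933 named genes whose average log2 CPM was not below 0, were Gxylt1 (Pearson r = 0.988), Abat (0.981), Hist1h1a (0.973), Fam91a1 (0.973) and the pseudogene Gm5844 (0.963). These values are descriptive, since the points share clones and fall into a treated MLL-AF9-i139 cluster and the rest. Gxylt1, a glycosyltransferase gene, went from 111 ± 5.31 to 75.8 ± 2.48 CPM (SD, n = 3) in MLL-AF9-i139 and had 106 ± 3.44 and 101 ± 2.79 CPM (SD, n = 2) in MLL-AF9-ieGFP. Abat, which encodes GABA transaminase, went from 1.43 ± 0.0344 to 0.573 ± 0.0479 CPM and had 1.32 ± 0.0583 and 1.30 ± 0.183 CPM in MLL-AF9-ieGFP. Both changed by a smaller factor than Rspo3. Among the measured Wnt genes the same coefficient was 0.860 for Frat2, 0.763 for Ctnnb1, 0.758 for Znrf3, 0.726 for Frat1 and 0.635 for Axin1, and it was negative for Lgr4 (-0.55), Lrp6 (-0.74) and Rnf43 (-0.74).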

How the data were processed

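RNA was extracted with TRIzol, depleted of ribosomal RNA with KAPA RiboErase and sequenced on a NovaSeq. Reads were aligned by the authors with STAR 2.5.3e (GRCm38), counted per gene with featureCounts 1.6.0 (versions from the submitters' processing notes) and deposited as raw counts for 52550 genes, 25799 of them at 0 in these 10 libraries. The settings for strand and for introns are not given in the sources used here. A table with 14 columns of other samples was used only for these 10 libraries, which hold the same counts in both tables (0 differing values).

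Symbols and positions came from GENCODE M21 on GRCm38, a later release than the one the authors used, and 52403 identifiers had a symbol. Genes with at least 10 counts in total were tested with edgeR 4.0.16 in R 4.3.3 (TMM, quasi-likelihood test, Benjamini-Hochberg over all genes tested, threshold 0.05). The 6 MLL-AF9-i139 libraries were fitted alone, and the MLL-AF9-ieGFP effect and the difference of effects came from 1 fit over 10 libraries. DESeq2 1.42.0, other filters and scalings, a clone block and fits without each clone were alternatives. Single clones were compared by log2 CPM with a prior count of 2. The SE of an edgeR log2 fold change was derived from that value and its quasi-likelihood F statistic.

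The labels name the clone, so clones pair the libraries. The deviations from the group mean of both libraries of a clone correlated at 0.288 to 0.414. Those of different clones correlated at -0.315 to -0.0436, but centering on the group mean pushes them below 0 once the former are positive. They are therefore no separate support. The MLL-AF9-ieGFP libraries differ only by culture time, and their p-values pool that spread with the spread between the MLL-AF9-i139 clones. No 2 replicates agreed within sampling noise. The scripts were tested on simulated data. The 10 genes and all lists were chosen with earlier results of these data known. Named from the wider list were genes passing with or without the block, at most 15, plus the 3 highest and 3 lowest of those with an average log2 CPM of at least 0, and the 5 genes most correlated with Rspo3.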

Additional observations from a re-analysis of the deposited data

How the results depend on the processing

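In MLL-AF9-i139 the count of genes that passed was 12 without a block, 2381 with the replicate block (the clone), 1556 with DESeq2, 1234 with all 10 libraries in 1 fit, 562 with genes of at least 1 count and 6 with at least 10 counts in several libraries. Leaving out 1 clone gave 0 to 3981 genes without and 324 (without clone 1), 580 (clone 2) and 7974 (clone 3) with the block, the highest each time without clone 3. Of the 8 measured Wnt genes other than Rspo3, 0 passed without a block, 4 with the replicate block, and 1 with DESeq2, with all libraries in 1 fit or with genes of at least 1 count (Frat2 each time). Leaving out 1 clone gave 0 to 5 of the 8 and, with the block, 1 to 8. Of the wider list 0 passed without a block, 7 with the replicate block, 2 with DESeq2, 5 with all libraries and 1 with genes of at least 1 count, and leaving out 1 clone gave 0 to 10, or 0 to 31 with the block. The fits with the block that leave out a clone were added after seeing the data.

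In MLL-AF9-ieGFP 0 genes passed, but 1 did with DESeq2 or with genes of at least 1 count. For the difference of effects the count was 1, against 83 with DESeq2, 71 with genes of at least 1 count, 0 with at least 10 counts in several libraries, 38 with the replicate block and 0 to 2011 without 1 clone or culture time, the highest without clone 3. Small MLL-AF9-ieGFP log2 fold changes changed sign: Rnf43 to -0.0060 with DESeq2 and with RLE size factors, -0.00050 with at least 10 counts in several libraries, and -0.0017 with the MLL-AF9-ieGFP libraries alone. Without the 48 h or the 72 h libraries, values went from -0.017 to 0.0089 for Rnf43, -0.015 to 0.056 for Lrp6, -0.22 to 0.16 for Lgr4, -0.22 to 0.038 for Frat1 and -0.034 to 0.046 for Axin1. The SE of Frat2 in MLL-AF9-ieGFP was 0.28, and 0.087 with those libraries alone, where 0 genes passed too. Of the remaining tested values, 212 kept their direction and their side of the threshold and 27 were newly past it. Rspo3, given without a test, ranged from -4.42 to -3.62 in MLL-AF9-i139 and from -3.88 to -3.10 in the difference. The cause was not tested, except that fewer clones or other filters change which libraries and genes enter a fit. Depth limits Rspo3, whose treated MLL-AF9-i139 libraries hold few reads.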
